A study of Apis mellifera with 13 samples.

Results

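The antennae of forager honey bees were compared with those of nurse honey bees, gene by gene, in 2 forager libraries (numbered 2 and 3) and 3 nurse libraries (numbered 1, 2 and 3), which are 5 of the 13 samples in the series. Foragers were workers caught at the hive entrance as they came back with pollen, and nurses were workers whose heads were inside cells of young larvae. Both groups were taken from standard hives of Apis mellifera ligustica and carnica hybrids. The ages of these bees are given as unknown, so that age and task cannot be told apart, and the hive behind each library is not given. Each library is a pool of antennae, 4 pairs by the sample labels, while the methods describe larger pools made by combining such sets. A forager library numbered 1 is not analysed here. Of the 13414 genes in the table, the 10436 whose values added up to 15 or more were described and tested, and 2059 were at 0 in every library.

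Workers of a honey bee colony change tasks as they grow older: young adults feed and clean the brood inside the hive, and older adults leave it to collect pollen and nectar. The change goes with a rise in juvenile hormone and a fall in vitellogenin, the yolk protein that nurses use to make brood food. The flagellum, the many-jointed outer part of the antenna, carries the sensilla in which neurons with odorant, gustatory and mechanosensory receptors sit behind a cuticle lined by epidermis, and soluble carrier proteins bring odours from pores in that cuticle to the receptors.

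Values are normalised pseudo-counts, the read counts per gene after the authors adjusted them to a common library size. Differences are given as log2 of the forager level minus log2 of the nurse level, after 1 was added to each value. They were tested with limma (two-sided, Benjamini-Hochberg adjustment over all genes tested, threshold 0.05). By the methods the bees came from 3 hives and the libraries from different colonies, but the labels do not tie a library to a hive, so the p-values measure the spread between these libraries. Normalised totals lay between 3.36e+07 and 3.47e+07 and say nothing of how deeply a library was sequenced. Nurse 2 stood apart: it correlated at 0.966 and 0.968 with nurse 1 and nurse 3 on the log2 scale, while those libraries correlated with each other at 0.979 and the foragers with each other at 0.976. It differed from nurse 1 by over 4-fold in 524 genes, against 288 between nurse 1 and nurse 3. Calls are therefore given with nurse 2 and without it, and a log2 difference, standard error or adjusted p with no fit named beside it is the one without nurse 2.

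The antenna was checked against its defining genes. All 7 antennal markers were present in each library, with summed values of 1518810 and 1587130 in foragers and of 1596990 to 1612520 in nurses, and the co-receptor of odorant receptors, Or2, was at 16444 and 21394 in foragers and at 17857, 13319.9 and 15403 in nurses 1, 2 and 3. The venom gene Mcdp, the opsin Uvop and the storage protein gene Hex70c were at 0 in all 5 libraries, but other markers of their tissues were not. The 5 photoreceptor markers summed to 127 and 185 in foragers and to 221, 329 and 249 in nurses. The 4 venom gland markers summed to 4.35 and 8.40 in foragers and to 6.63, 35.5 and 11.2 in nurses. The fat body sums are given with the basement membrane genes. The 4 muscle markers in the table summed to 69.8 and 62.4 in foragers and to 33.5, 23.3 and 29.1 in nurses.

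With all 5 libraries, 10 genes passed the threshold, 6 higher in foragers (0.0575% of the genes tested) and 4 lower (0.0383%). LOC552811 (GB41212), a laccase-5-like gene of the multicopper oxidases, was at 4054 and 3429.96 in foragers 2 and 3, against 312, 129 and 213 in nurses 1, 2 and 3. SCR-B1 (GB52097), a class B scavenger receptor of the CD36 family that takes up lipids, was at 5199 and 3941 in foragers, against 1052, 992 and 913 in nurses. The log2 difference of LOC552811 was 4.18 with all 5 libraries (standard error 0.35, adjusted p = 0.0202). That of SCR-B1 was 2.21 without nurse 2 (standard error 0.16, adjusted p = 0.00291), and its adjusted p with all 5 libraries was 0.0165. Both genes had their forager and nurse libraries far apart. Nurse 2 was close to the other nurses in SCR-B1 and the lowest library in LOC552811. LOC410326 was at 8318 and 7704 in foragers and 2643, 2134 and 3262 in nurses, LOC408697 was at 15299 and 14721 in foragers and 7993, 7536 and 8412 in nurses, and LOC100576895 was at 8977 and 6002 in foragers and 1653, 1036 and 910.4 in nurses. Among the genes lower in foragers, lox2 (GB49476), a lysyl oxidase that crosslinks collagen, was at 715 and 681 in foragers, against 2169.9, 2577 and 2809 in nurses. The ebony gene (GB46429), whose enzyme joins beta-alanine to dopamine and histamine, was at 11003 and 10802 in foragers, against 24991, 35904 and 31493 in nurses. Their log2 differences with all 5 libraries were -1.84 (standard error 0.14, adjusted p = 0.0195) and -1.48 (standard error 0.17, adjusted p = 0.0478). Of the remaining 2 lower genes, LOC724783 was at 227 and 229 in foragers and 900.00, 787 and 902 in nurses, and LOC725489 at 2097 and 1837 in foragers and 4158, 4487 and 5016 in nurses. The sixth higher gene, LOC102656472, is given with the non-coding genes. In all 10 genes the groups did not overlap, which was so for 16.1% of all genes tested with the foragers above and for 16.5% with the foragers below. A further 1347 genes had an unadjusted p under 0.05 and did not pass the adjustment. Leaving out 1 library left 0 genes without forager 2, forager 3 or nurse 3 (736, 832 and 1202 with an unadjusted p under 0.05 in limma) and 7 without nurse 1.

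**Figure D1:**
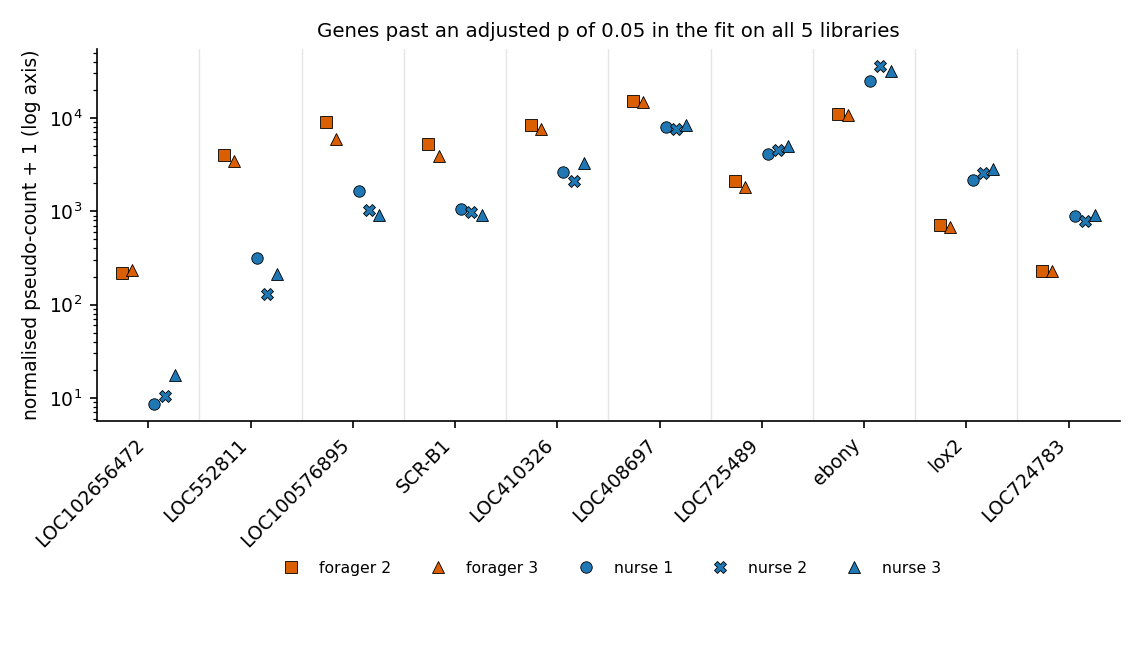
Normalised pseudo-counts plus 1 (log axis) of the 10 genes past an adjusted p of 0.05 with all 5 libraries; each point is 1 library, foragers in orange on the left and nurses in blue on the right of each gene. The forager points lie above all nurse points in the 6 genes on the left and below them in the 4 genes on the right.

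Without nurse 2 the number of genes past the threshold was 76, with 46 higher in foragers (0.441% of the genes tested) and 30 lower (0.287%), and the 10 genes above were among them. An unadjusted p under 0.05 was reached by 1311 genes (12.6%). None of the 76 changed direction when nurse 2 was put back, 61 of them then had a larger difference, and in 75 of them the groups did not overlap in all 5 libraries. LOC413723 (GB43512), annotated as a pancreatic lipase-like gene, was the exception, at 880.2 and 797 in foragers and 2368, 783 and 3005 in nurses. Nurse 2 lay beyond nurses 1 and 3, on the side away from the foragers, in 55 of the 76 genes (72.4%), a position it had in 36.3% of all genes tested. It lay between nurse 1 and nurse 3 in 11 of the 76 genes. The 76 genes rest on 2 libraries in each group: with 1 more left out, 2 passed without forager 2, 5 without forager 3 and 0 without nurse 1 or nurse 3 (937 and 735 with an unadjusted p under 0.05). Across all genes tested, leaving nurse 2 out changed the sign of the difference in 12.9%. It did so in 0 of the 1357 genes with an unadjusted p under 0.05 with all 5 libraries. Those genes were picked for differences that are large against the spread of the same libraries, so this 0 is no separate support. The 76 genes were likewise picked on libraries that remain when nurse 2 is put back. Their kept direction and lack of overlap are therefore no separate support either.

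**Figure D2:**
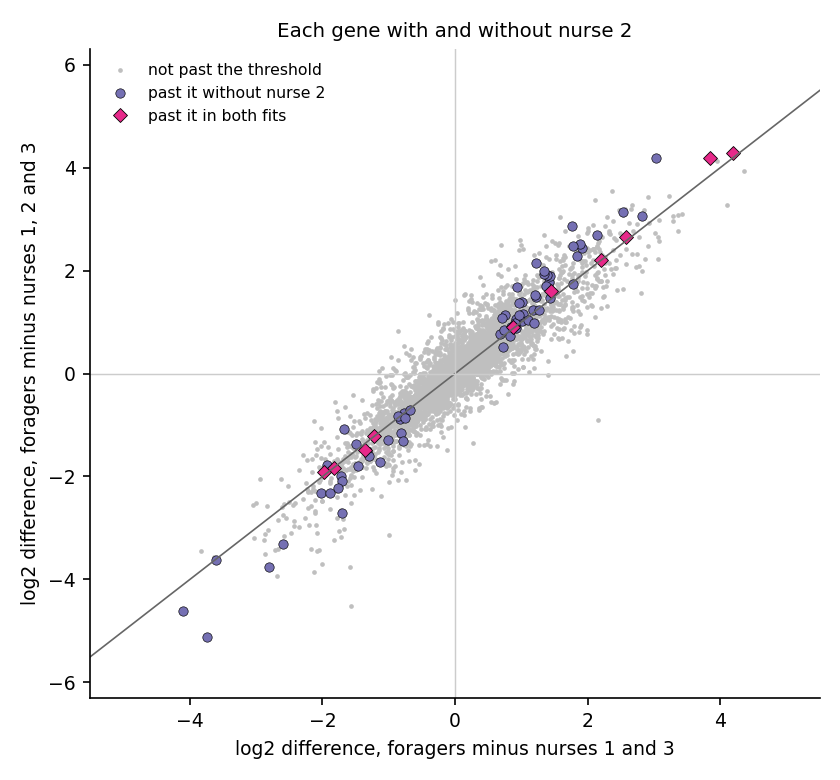
Log2 difference of each of the 10436 genes, foragers minus nurses 1, 2 and 3 (vertical) against foragers minus nurses 1 and 3 (horizontal), with a line where both are equal. The 76 genes past the threshold without nurse 2 are coloured, 10 of them as diamonds because they also passed with all 5 libraries, and 61 of the 76 lie farther from 0 on the vertical axis.

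Several genes of lipid uptake, lipid carriage and very long chain fatty acid synthesis were higher in foragers without nurse 2. There, 10 of the 32 genes tested in this list passed higher in foragers (0.441% of all genes tested) and 1 lower (0.287%), and with all 5 libraries 1 passed. The list went both ways: with all 5 libraries 18 differences were positive and 14 negative. Both foragers lay above all nurses in 17 genes (16.1% of all genes) and below them in 8 (16.5%). In limma 14 genes were higher and 8 lower at an unadjusted p under 0.05 (6.18% and 6.82% of all genes tested). Many members were entered after the study had singled them out on these libraries, so the count is not independent evidence of the direction. The median log2 difference of the list was 0.65 with all 5 libraries and 0.39 without nurse 2, against 0.00 over all genes tested. The elongase-like gene LOC724867 (GB54401), of the enzyme family that lengthens fatty acids to very long chains, was at 41216 and 43584 in foragers, against 6793, 2112 and 7927 in nurses. Its log2 difference was 2.53 without nurse 2 (standard error 0.12, adjusted p = 0.000573) and 3.13 with it (adjusted p = 0.11). LOC552110 (GB49328), a putative fatty acyl-CoA reductase, which turns such acids into alcohols, was at 32071 and 23498 in foragers and 12081, 3901 and 8497 in nurses (1.44 without nurse 2, adjusted p = 0.0317). In both genes nurse 2 was the lowest library.

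Carriers of hydrophobic molecules stood beside these enzymes. LOC412768 (GB42704), a takeout-like gene of a family of small lipid-binding proteins, was at 54108 and 41050.3 in foragers, against 9062, 527 and 3641 in nurses, a log2 difference of 3.04 without nurse 2 (standard error 0.37, adjusted p = 0.0194) and 4.18 with it. Of the pair of genes annotated as alpha-tocopherol transfer protein-like, LOC551761 (GB40837) was at 37428 and 26409 in foragers and 11656, 3453 and 6575 in nurses, and LOC408361 (GB45023) at 77434 and 59367 in foragers and 29943, 45412 and 29641 in nurses. Nurse 2 was the lowest nurse in LOC551761 and the highest in LOC408361, so the difference without it was smaller in LOC551761 (1.84 against 2.29) and larger in LOC408361 (1.19 against 0.98). LOC552489 (GB46902), a SEC14-like lipid transfer gene, had a log2 difference of 0.96 without nurse 2 (adjusted p = 0.0485).

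The class B scavenger receptors were also taken as a whole family by their symbols, of which 7 genes were tested. In 5 of them both foragers lay above all nurses (16.1% of all genes tested), in 0 below, and 2 passed higher without nurse 2 (0.441%). SCR-B2 (GB45986) was at 90903 and 96651 in foragers, against 33698, 11813 and 38474 in nurses, with a log2 difference of 1.38 without nurse 2 (standard error 0.14, adjusted p = 0.00982). SCR-B6 was at 4718 and 6162 in foragers and 3341, 2861 and 2664 in nurses (0.85, adjusted p = 0.0771 without nurse 2), and SCR-B4, at 291 and 221 in foragers and 235, 248 and 289 in nurses, overlapped between the groups.

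Enzymes that split lipids went both ways. LOC551268 (GB43510), a triacylglycerol lipase-like gene, was at 1005 and 1165 in foragers and 293, 78.2 and 203 in nurses, with a log2 difference of 2.15 without nurse 2 (adjusted p = 0.0142). LOC551094 (GB48850), like fatty-acid amide hydrolases that degrade lipid amides, was at 6312 and 5691 in foragers and 3448, 652 and 2839.9 in nurses (adjusted p = 0.0297 without nurse 2). LOC409709 (GB53579), a glucocerebrosidase that removes glucose from a membrane lipid, was at 2381 and 2136 in foragers and 840.4, 149 and 516 in nurses (adjusted p = 0.0224). These 3 genes were higher in foragers. LOC413723, the lipase-like gene with overlapping groups, was lower in foragers without nurse 2, with a log2 difference of -1.67 (adjusted p = 0.0091).

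The basement membrane is the sheet of collagen and laminin under an epithelium, and 2 of its 3 collagen genes were lower in foragers without nurse 2. All 8 genes tested in this list had a negative log2 difference, 7 had both foragers below all nurses (16.5% of all genes tested), and 4 passed without nurse 2 (0.287%), with a median of -1.78 with all 5 libraries and -1.44 without nurse 2. Members of this list were chosen with earlier results of these data known, so its counts are not independent evidence of the direction. Type IV collagen forms the main network of this sheet, and the study had listed its genes on these libraries. LOC408551 (GB45943) was at 1095 and 1328 in foragers, against 6312, 31921 and 8400.3 in nurses, with a log2 difference of -2.59 without nurse 2 (standard error 0.17, adjusted p = 0.00187) and -3.30 with it (adjusted p = 0.132). LOC408552 (GB45968) was at 437 and 642 in foragers, against 3553, 26894 and 3875 in nurses, with -2.81 (standard error 0.19, adjusted p = 0.00228) and -3.76 with nurse 2 (adjusted p = 0.161). Nurse 2 was the highest library in both, several times above the other nurses. The collagen alpha-1(XI)-like gene LOC408394 was at 4.00 and 11.5 in foragers and 26.7, 399.5 and 24.5 in nurses and did not pass (log2 difference -1.75, adjusted p = 0.378).

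BM-40-SPARC (GB43302), which binds collagen, was at 3257 and 2850.2 in foragers and 7546, 22833 and 5913 in nurses (-1.13 without nurse 2, adjusted p = 0.0224), and lox2 was described above. Pxn, the peroxidasin that links collagen IV chains, was at 1273 and 1425 in foragers and 1767, 2606 and 2012 in nurses (adjusted p = 0.193 without nurse 2). The laminin gene LanB2 differed little, at 3361 and 3565 in foragers and 3753, 3766 and 3786 in nurses, and the nidogen gene Ndg overlapped between the groups, at 3448 and 5621 in foragers and 5480.4, 15141 and 4200.1 in nurses. Haemocytes and fat body are known sources of collagen IV in insects. The 4 haemocyte markers in the table (PPO, NimC1, NimC2 and NimA) summed to 533 and 862 in foragers, against 1553, 2313 and 1455 in nurses 1, 2 and 3. The 5 fat body markers summed to 70.5 and 131 in foragers, against 179, 628 and 149 in nurses. Most of this nurse sum was Vg, while Hex110 was at 20.9 and 22.2 in foragers and 20.2, 0.095 and 18.6 in nurses, and Hex70c was at 0. PPO made up much of the nurse haemocyte sum, and NimC1 and NimC2 overlapped between the groups. The part of these cells in the collagen values was not tested. In pooled tissue, fewer cells of a type and less RNA per cell cannot be told apart.

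**Figure D3:**
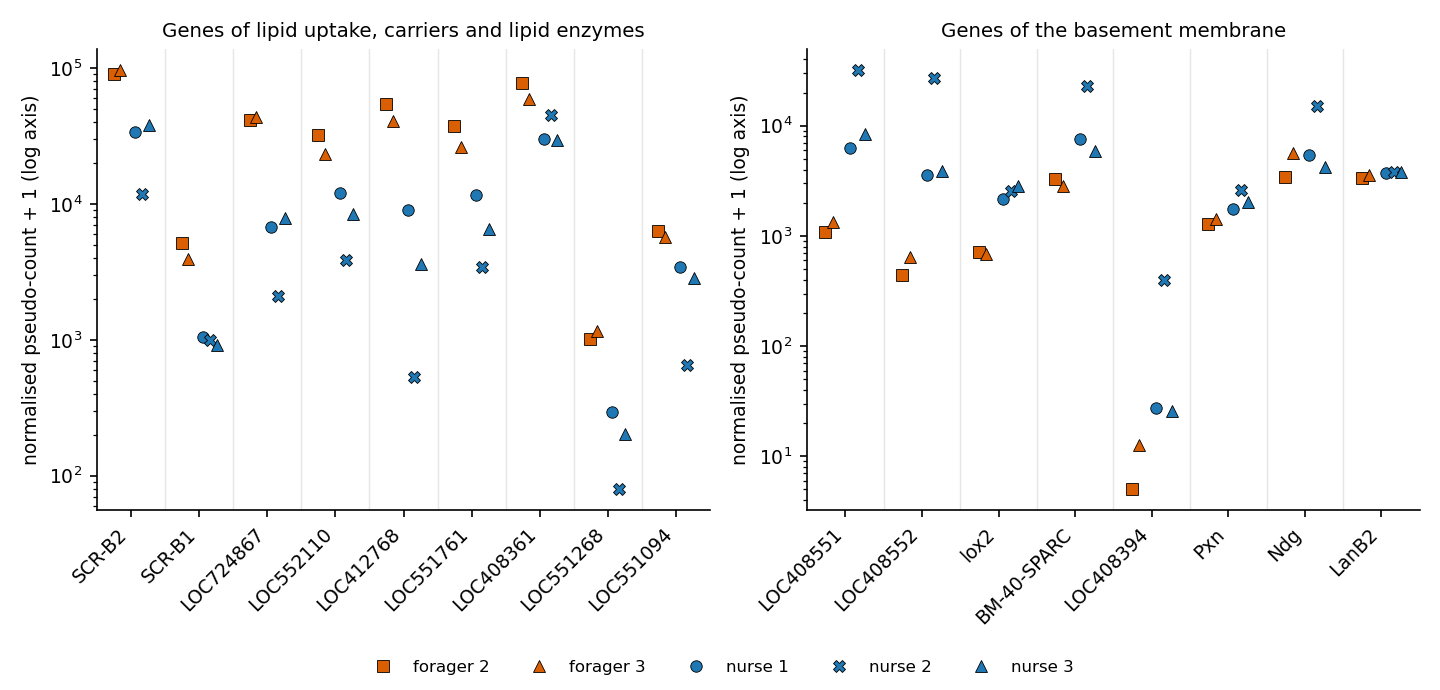
Normalised pseudo-counts plus 1 (log axis) in each library for genes of lipid uptake, carriers and lipid enzymes (left) and for genes of the basement membrane (right), foragers in orange and nurses in blue. Nurse 2 (cross) is the lowest library in 7 of the 9 lipid genes shown and the highest in 6 of the 8 basement membrane genes. The lipid genes shown were picked from those given above as higher in foragers. Over all 32 genes tested in the lipid list, nurse 2 was over 1 on the log2 scale below the mean of nurses 1 and 3 in 12 and above it in 6.

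Further single genes that passed without nurse 2, chosen after their values were seen and not as a group, act outside cells or at their borders. The dumpy gene dp (GB55781), whose Drosophila counterpart encodes a giant fibre protein that ties epidermis to cuticle, was at 1202 and 1213 in foragers and 1997, 6149 and 2169 in nurses (-0.78 without nurse 2, adjusted p = 0.0438). LOC727408 (GB43897), like the guidance protein Slit, was at 1145 and 1205 in foragers and 2443, 5461 and 3436 in nurses (adjusted p = 0.0242 without nurse 2), and LOC100577777, mucin-6-like, at 194 and 259 in foragers and 664, 608 and 1116 in nurses (adjusted p = 0.0377). The gap junction gene inx2 was at 1019.5 and 1310.5 in foragers and 2174, 4253 and 2496 in nurses (adjusted p = 0.0438), and the aquaporin-like gene LOC410915 (GB41225), of a family of water channels, at 1346 and 1316 in foragers and 2506, 4648 and 2201 in nurses (adjusted p = 0.0419). LOC409950 (GB50700), a fibrillin-like gene, was higher in foragers, at 1987 and 2333 in foragers and 1037, 416 and 666 in nurses (1.37 without nurse 2, adjusted p = 0.0438).

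Genes of cuticle and chitin had mostly lower values in foragers, and nurse 2 was high in most of them. Of 47 genes tested, 33 had a negative difference with all 5 libraries and 19 had both foragers below all nurses (16.5% of all genes tested). Of these 47, 0 passed with all 5 libraries, while 10 lower and 1 higher had an unadjusted p under 0.05, against 6.82% lower and 6.18% higher over all genes tested. Without nurse 2, 2 passed lower in foragers (0.287% of all genes tested), dumpy and LOC100577527 (GB50477). The second was at 354 and 489 in foragers and 1168, 3634 and 1726 in nurses (adjusted p = 0.0276). The median was -1.01 with all 5 libraries and -0.54 without nurse 2. In 32 of the 47 genes nurse 2 was over 1 on the log2 scale above the mean of nurses 1 and 3, which was so for 5.96% of all genes tested. Chitinase gene LOC413481 (GB48474) was at 74.1 and 116 in foragers and 159, 1886 and 219.8 in nurses, and Cda4 (GB45318), a chitin deacetylase-like gene, at 248 and 152 in foragers and 305, 3336 and 381 in nurses, so that nurse 2 stood far above the other libraries in each. CPR28 (GB52161), a cuticular protein of the Rebers and Riddiford family, was at 2589.9 and 3017 in foragers and 4269.5, 9081 and 4576 in nurses, with a log2 difference of -0.66 without nurse 2 (standard error 0.12, adjusted p = 0.0604).

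Melanin and tanning genes hold enzymes that turn tyrosine into the pigments and crosslinkers of cuticle. Of 10 genes tested, 1 passed higher (0.441% of all genes tested) and 2 lower (0.287%) in foragers without nurse 2. Both foragers lay above all nurses in 1 gene (16.1% of all genes tested) and below them in 6 (16.5%). The higher gene was the laccase-5-like LOC552811 described above, whose log2 difference was 3.85 without nurse 2 (standard error 0.21, adjusted p = 0.000781). The laccase-1-like gene LOC724890 (GB53028) of the same enzyme family lay on the other side, at 2214 and 2699 in foragers and 4137, 7272 and 8174 in nurses (-1.25, adjusted p = 0.118 without nurse 2). PPO (GB43738), the prophenoloxidase of melanin formation and wound response, which is made in haemocytes, was at 143 and 224 in foragers, against 802, 1368 and 668 in nurses, with a log2 difference of -2.33 with all 5 libraries (adjusted p = 0.103) and -2.02 without nurse 2 (standard error 0.27, adjusted p = 0.0242). The other 3 haemocyte markers did not pass, with log2 differences of -1.06 for NimA (adjusted p = 0.305), -0.54 for NimC1 (adjusted p = 0.503) and -0.45 for NimC2 (adjusted p = 0.638).

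Genes of juvenile hormone and of behavioural maturation changed in both directions. Jhe (GB53755), the esterase that breaks down juvenile hormone, was at 6656 and 7729 in foragers, against 15695, 26169.8 and 20648 in nurses, with a log2 difference of -1.33 without nurse 2 (standard error 0.15, adjusted p = 0.0165) and -1.51 with it (adjusted p = 0.103). A second gene annotated as juvenile hormone esterase-like, LOC413047 (GB48046), was at 18.2 and 7.48 in foragers, against 139.5, 160.1 and 172 in nurses (-3.61 without nurse 2, adjusted p = 0.037). Kr-h1 (GB45427), a transcription factor that juvenile hormone induces, was at 641 and 1072 in foragers and 269, 128 and 123 in nurses, and its log2 difference of 2.18 without nurse 2 did not pass (standard error 0.40, adjusted p = 0.0612). Both esterase genes thus passed lower in foragers, and Kr-h1 had its forager libraries above all nurse libraries. Hr38 (GB40074), a nuclear receptor whose transcription is induced by neuronal activity in insects, was at 3057 and 3608 in foragers and 1324, 1732 and 1819.9 in nurses (1.10 without nurse 2, adjusted p = 0.0438). Vitellogenin, the gene Vg, had low values, at 43.9 and 85.4 in foragers and 149, 578 and 105 in nurses (adjusted p = 0.398 without nurse 2). Of the 19 genes tested in this list, 1 passed higher (0.441% of all genes tested) and 2 lower (0.287%) in foragers without nurse 2, and its median was 0.06. Both foragers lay above all nurses in 6 of the 19 (16.1% of all genes tested) and below them in 4 (16.5%).

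The proteins that carry odours or line the sensilla did not move as 1 group. Of the 5 chemosensory protein genes tested, small soluble carriers of hydrophobic ligands, 3 had both foragers below all nurses (16.5% of all genes tested). CSP2 (GB55547) was at 217 and 279 in foragers, against 778, 1799 and 832 in nurses, and passed without nurse 2, with a log2 difference of -1.71 (standard error 0.21, adjusted p = 0.0194). CSP4 was at 11334 and 10790.3 in foragers and 19779, 44771 and 30450.3 in nurses (adjusted p = 0.0506 without nurse 2), and CSP6 at 1529 and 975 in foragers and 2396, 3605 and 2842 in nurses (adjusted p = 0.0773). CSP1 and CSP3 overlapped between the groups with all 5 libraries, at 396260 and 347562 in foragers and 379792, 370906 and 333237 in nurses for CSP1. CSP3 was at 149193 and 156602 in foragers and 98336, 183306 and 114077 in nurses. Its foragers thus lay above nurses 1 and 3 and below nurse 2, and it did not pass without nurse 2 (0.53, adjusted p = 0.234). The family thus held 1 gene past the threshold (0.287% of all genes tested passed lower without nurse 2) and a pair that missed it in the same direction.

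Odorant-binding proteins, which bind odours in the sensillum fluid, did not pass in either fit (0 of 16 with all 5 libraries and 0 without nurse 2). With all 5 libraries 4 had an unadjusted p under 0.05 in limma, all higher in foragers (6.18% of all genes tested were higher at that level and 6.82% lower). Obp14 (GB46223) was at 133 and 65.6 in foragers, against 11.9, 12.6 and 8.75 in nurses, a log2 difference of 2.98 with all 5 libraries (standard error 0.52, adjusted p = 0.119) and 3.07 without nurse 2 (adjusted p = 0.0593). Both foragers lay above the nurses and were themselves far apart. Obp16 (GB46225) was at 201157 and 174098 in foragers and 113427, 28889 and 107140 in nurses, and Obp4 (GB53372) at 69634 and 61949.8 in foragers and 42472, 19561 and 44110.2 in nurses, with nurse 2 the lowest library in both (adjusted p = 0.107 for Obp16 and 0.103 for Obp4 without nurse 2). Obp21 was also lowest in nurse 2, at 21007, against 137825 to 201267 in the other 4 libraries, and its foragers, at 201267 and 160534, lay just above nurse 1 and nurse 3 (log2 difference 0.28, adjusted p = 0.589).

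Odorant receptors, the ion channels by which olfactory neurons detect odours, were mostly positive with none past the threshold. Of 53 tested, 48 had a positive log2 difference with all 5 libraries and 43 without nurse 2, against 50.1% and 49.4% of all genes tested, and 19 had both foragers above all nurses and 1 had them below (16.1% and 16.5% of all genes). The median was 0.30, and 0.21 without nurse 2. In limma 0 passed with all 5 libraries or without nurse 2. With all 5 libraries 6 had an unadjusted p under 0.05 with foragers higher and 1 with foragers lower (6.18% and 6.82% of all genes tested). Or22 was at 1050.4 and 834 in foragers and 608, 694 and 554 in nurses, and Or4 at 1924 and 1938 in foragers and 1461, 1159.7 and 1298 in nurses. Or141 was the gene with both foragers below, at 393 and 369 in foragers and 516, 561 and 515 in nurses. Odorant receptors form a large family of similar copies, and reads shared between them may have been lost or split in counting.

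Gustatory receptors and mechanosensory channels gave 0 genes past the threshold in either limma fit. With all 5 libraries, 2 of 6 gustatory genes had an unadjusted p under 0.05 with foragers higher and 1 with foragers lower. Of 8 channel genes 2 did with foragers higher. Over all genes tested, 6.18% were higher and 6.82% lower at that level. Gr10, a gustatory receptor, was at 19.1 and 22.2 in foragers and 81.2, 92.7 and 94.2 in nurses, a log2 difference of -2.06 with all 5 libraries (adjusted p = 0.119), while Gr7 was at 74.4 and 63.4 in foragers and 19.6, 34.6 and 10.1 in nurses and LOC102654049, a putative gustatory receptor 28b-like gene, at 103 and 43.4 in foragers and 8.46, 11.6 and 16.8 in nurses. Nan (GB44065) and Iav (GB40818) encode the TRP channels Nanchung and Inactive, which act together in the hearing organ of the Drosophila antenna. Nan was at 919 and 659 in foragers and 205, 100.1 and 71.2 in nurses, with a log2 difference of 2.77 with all 5 libraries (adjusted p = 0.108) and 2.68 without nurse 2 (standard error 0.46, adjusted p = 0.0527). Iav was at 771 and 729.7 in foragers and 376, 214 and 254 in nurses, with 1.45 with all 5 libraries (adjusted p = 0.119) and 1.28 without nurse 2 (standard error 0.23, adjusted p = 0.0593). Both partners had their forager libraries above all nurse libraries, at adjusted p-values just over the threshold without nurse 2. Among the other members, Pain was at 1716 and 1473 in foragers and 1862, 1661 and 1833 in nurses.

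The list of receptors for amines, peptides and transmitters, which also holds a peptide-binding protein, had 38 genes tested. Without nurse 2, 3 passed higher in foragers (0.441% of all genes tested) and 1 lower (0.287%). Both foragers lay above all nurses in 11 genes (16.1% of all genes tested) and below them in 6 (16.5%). TyrR (GB17991), the receptor for tyramine, a modulator of sensory and motor neurons, was at 1188 and 1848 in foragers and 609.7, 505 and 491 in nurses (1.44, adjusted p = 0.0485). Crzr (GB44824), the receptor of the peptide corazonin, was at 2690.2 and 2353 in foragers and 1315, 886 and 1269 in nurses (0.96, adjusted p = 0.0242). The corticotropin-releasing hormone binding protein gene crh-BP (GB40439), whose product captures a stress peptide, was at 2147 and 1892 in foragers and 904, 438 and 847 in nurses (1.20, adjusted p = 0.0165). In these 3 genes the foragers did not overlap the nurses with nurse 2 included. LOC100577030 (GB54178), galanin receptor type 1-like, was the lower one, at 327 and 402 in foragers and 1012, 2082 and 1415 in nurses (-1.72, adjusted p = 0.0224). Vkr (GB53865), the venus kinase receptor, a tyrosine kinase with a Venus flytrap domain outside the cell, was higher in foragers, at 5772 and 4971 in foragers and 2613, 1946 and 2678 in nurses (1.02, adjusted p = 0.0165).

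Detoxification and redox genes had few members past the threshold. CYP9Q3, a cytochrome P450 of the honey bee that breaks down acaricides and plant flavonoids, was at 17146 and 21684 in foragers, against 10019.8, 4403 and 9077 in nurses, and passed without nurse 2 (1.02, standard error 0.14, adjusted p = 0.0272). CYP6BD1 was at 4239.9 and 4023 in foragers and 1649, 847 and 2818 in nurses (adjusted p = 0.135 without nurse 2). Cyp4g11 (GB51356), a P450 of cuticular hydrocarbon synthesis, was at 1047 and 779 in foragers and 1511, 3531 and 1469.7 in nurses (adjusted p = 0.132). Of 30 P450 genes tested, CYP9Q3 was the 1 that passed without nurse 2, higher in foragers (0.441% of all genes tested). CYP301A1, at 4.06 and 10.5 in foragers and 41.6, 62.1 and 48.6 in nurses, had a log2 difference of -2.59 (adjusted p = 0.151). GstU1 (GB49614), a glutathione S-transferase, was at 937 and 899 in foragers and 2226, 5070.3 and 2875 in nurses. It was lower in foragers (-1.46, adjusted p = 0.0142 without nurse 2), as the 1 of 7 that passed (0.287% of all genes tested passed lower). Pxd (GB49689), a peroxidase, was at 189 and 204 in foragers and 636, 423 and 485 in nurses (-1.50, adjusted p = 0.0419). Of 15 genes tested in the GMC oxidoreductase list 0 passed in either fit. In limma with all 5 libraries, 2 had an unadjusted p under 0.05 with foragers higher and 1 with foragers lower (6.18% and 6.82% of all genes tested). The short-chain dehydrogenase-like gene LOC410227 (GB48364) was at 656 and 376 in foragers and 1338, 2297 and 1568 in nurses (adjusted p = 0.0525 without nurse 2).

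Some single genes of metabolism and transport were also higher in foragers without nurse 2, and were picked after their values were seen. AGLU2 (GB43248), an alpha-glucosidase that splits sugars, was at 4198 and 4301 in foragers and 2509.9, 1191 and 2689 in nurses (0.71 without nurse 2, adjusted p = 0.0381), while Hbg3, the alpha-glucosidase of the hypopharyngeal gland, did not pass, at 1839 and 3111 in foragers and 905, 715 and 1428 in nurses (adjusted p = 0.172). LOC726839 (GB41742), like the trehalose transporter Tret1, was at 8770.3 and 8874 in foragers and 5615, 2376 and 4877 in nurses (adjusted p = 0.037). LOC413168 (GB53775), a retinol dehydrogenase 14-like gene, was at 11549.8 and 12157 in foragers, against 4703, 2961 and 5533 in nurses (1.22, standard error 0.12, adjusted p = 0.00982), and LOC412764 (GB42802), a transporter of the major facilitator family, at 4139 and 3999 in foragers and 1714, 721 and 1354 in nurses (adjusted p = 0.00982).

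Several genes of immune peptides and royal jelly proteins were high in both libraries numbered 3 and lower in forager 2, nurse 1 and nurse 2. In 18 genes forager 3 was over 4-fold above forager 2 and nurse 3 over 4-fold above nurse 1, with at least 50 in both high libraries. In 2 genes both libraries numbered 3 were low in the same way, and in 0 genes the groups went opposite ways. Of the 18 genes, 9 are in the immunity list or the list of yellow and royal jelly proteins. These lists hold 27 and 20 of the 10436 genes tested. Their members were chosen with earlier results of these data known, so the 9 are not independent evidence. Mrjp6 (GB55207), a major royal jelly protein, was at 0 and 2178 in foragers 2 and 3 and at 0, 2.33 and 1645 in nurses 1, 2 and 3. Mrjp5 was at 0 and 2388 in foragers and 0, 8.66 and 2149 in nurses, and Mrjp4 at 0 and 407 in foragers and 0, 0.19 and 290.1 in nurses. Royal jelly proteins are the main products of the nurse's hypopharyngeal gland, and its 7 markers summed to 1991 and 6912 in foragers, against 1025, 907 and 4575 in nurses. The antimicrobial peptide gene Def1, of defensin 1, was at 706 and 2909 in foragers and 106, 30.8 and 4849 in nurses. LOC406142 (GB51223), of the peptide hymenoptaecin, was at 135 and 1728 in foragers and 50.3, 23.4 and 3799.6 in nurses. Because the Mrjp genes are neighbouring copies of each other, reads may be split between them. In the immunity list, of 27 tested, PPO was the 1 gene that passed without nurse 2 (0.287% of all genes tested passed lower).

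**Figure D4:**
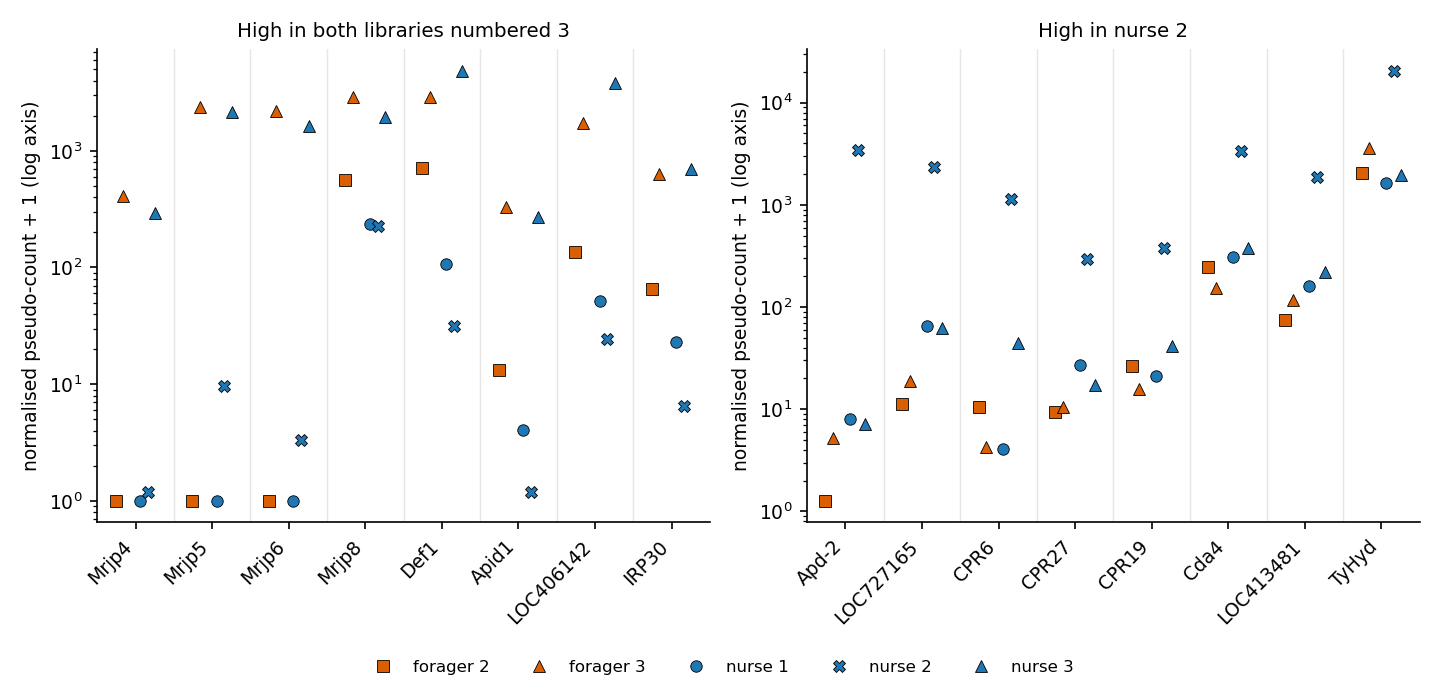
Normalised pseudo-counts plus 1 (log axis) in each library for 8 genes of royal jelly and immunity (left) and 8 genes of cuticle, chitin and tanning (right), foragers in orange and nurses in blue. On the left the triangles of forager 3 and nurse 3 are the highest points of every gene, and on the right the cross of nurse 2 is the highest of every gene.

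The genes with the largest excess in nurse 2 are given as a description without a test, and several of them are of cuticle. Apd-2 (GB53119), the apidermin 2 of the cuticle, was at 0.27 and 4.17 in foragers and 6.98, 3436 and 6.20 in nurses 1, 2 and 3. CPR6 was at 9.53 and 3.23 in foragers and 3.04, 1149 and 43.0 in nurses, and CPR27 at 8.39 and 9.50 in foragers and 25.9, 296 and 16.2 in nurses. TyHyd (GB40967), tyrosine hydroxylase, the first enzyme from tyrosine to melanin and dopamine, was at 2038 and 3574 in foragers and at 1622, 20543.5 and 1973 in nurses, a gene chosen after its values were seen. Among genes lowest in nurse 2, LOC100576135 (GB54881), glutamate receptor 1-like, was at 3796 and 2282 in foragers and 1182, 48.7 and 273 in nurses, with nurse 3 low as well. In all, nurse 2 was over 1 on the log2 scale above the mean of nurses 1 and 3 in 622 genes and below it in 702 (6.73%).

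The ribosomal, heat shock and axoneme lists had medians near 0, while the muscle list did not. Genes of cytosolic ribosomal proteins had a median log2 difference of -0.08 over 60 genes with all 5 libraries (45 of them negative) and of -0.12 without nurse 2. Those of mitochondrial ribosomal proteins had 0.06 over 51 genes with all 5 libraries and 0.10 without nurse 2. These small shifts went opposite ways. Without nurse 2, 10 of the 60 cytosolic and 40 of the 51 mitochondrial genes were positive (49.4% of all genes tested). Both foragers lay below all nurses in 17 cytosolic and 3 mitochondrial genes (16.5% of all genes tested). They lay above in 1 and 7 (16.1%). In limma 0 of either list passed in either fit, 3 cytosolic genes had an unadjusted p under 0.05 with foragers lower, and 1 mitochondrial gene did in each direction. RpL37 was at 6742 and 6877 in foragers and 9288, 7897 and 9590.03 in nurses (adjusted p = 0.0965 without nurse 2). Muscle genes, although the flagellum has no muscles of its own, had a median of 0.59 over 12 genes with all 5 libraries and 0.75 without nurse 2, with Mhc1 (GB51653), a myosin heavy chain, at 198 and 252 in foragers and 99.98, 62.2 and 57.7 in nurses (adjusted p = 0.157 with all 5 libraries). In limma 0 muscle genes passed in either fit, with 1 higher and 3 lower at an unadjusted p under 0.05. With all 5 libraries heat shock genes (10 tested) had a median of 0.03 and genes of the axoneme and cilia (10 tested) one of -0.01, against 0.07 and -0.02 without nurse 2, and 0 of them passed in limma. At an unadjusted p under 0.05 there were 1 heat shock gene and 2 axoneme genes in each direction. All counts at that level in this paragraph are with all 5 libraries. Over all genes tested, 6.18% were higher and 6.82% lower at that level.

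**Figure D5:**
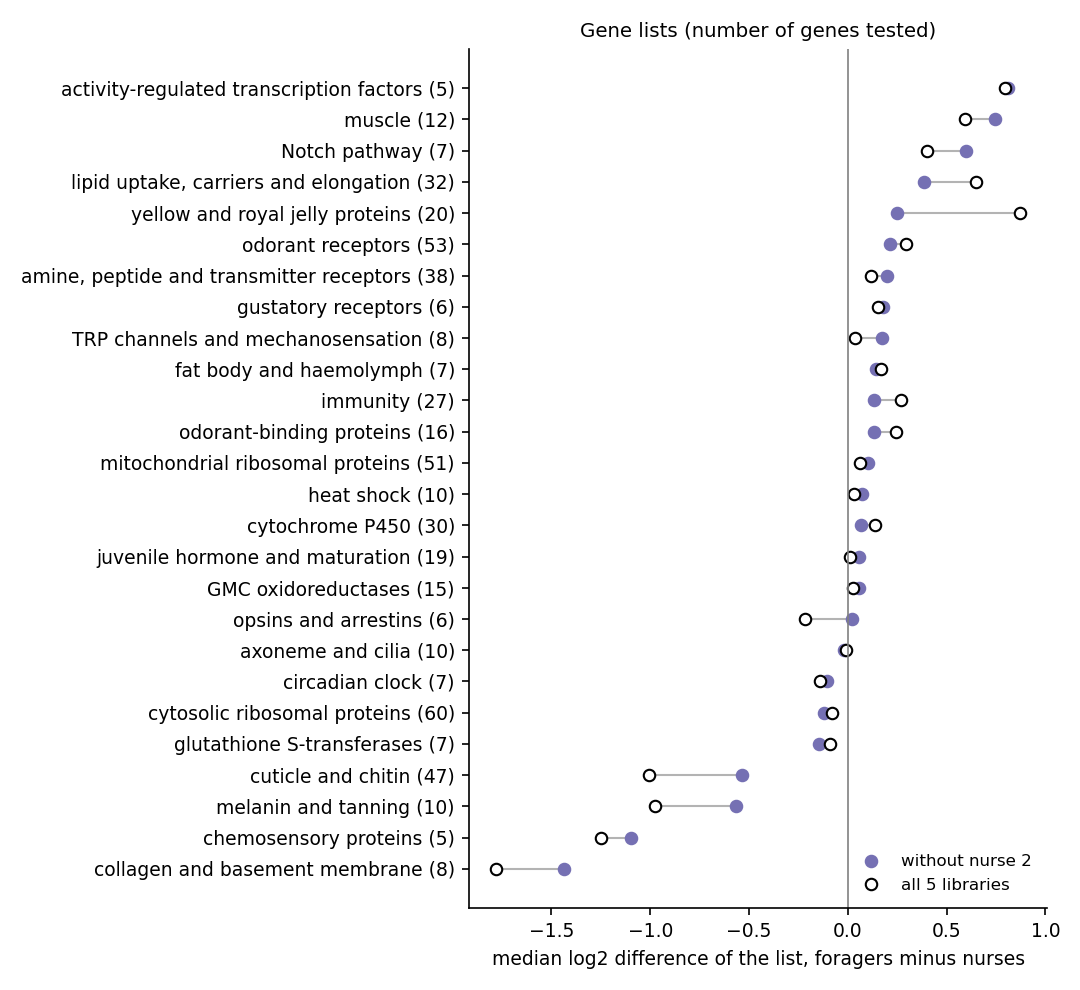
Median log2 difference, foragers minus nurses, of each gene list with the number of genes tested in brackets, without nurse 2 (filled) and with all 5 libraries (open). The basement membrane list is lowest at -1.44 without nurse 2 and -1.78 with it, and the cuticle list has its filled point at -0.54 and its open point at -1.01.

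Several of the largest differences belonged to genes with no description at hand. LOC102656472, annotated in RefSeq as a long non-coding RNA, was at 217 and 234 in foragers, against 7.69, 9.50 and 16.5 in nurses, a log2 difference of 4.28 with all 5 libraries (standard error 0.47, adjusted p = 0.0478). It overlaps Vkr in that table, so reads of the pair may not be separate. LOC102656314 was at 141 and 235 in foragers and 26.3, 14.8 and 23.8 in nurses (2.82 without nurse 2, adjusted p = 0.037). In the other direction the non-coding LOC102654210 was at 9.07 and 8.46 in foragers, against 184, 479.95 and 149.9 in nurses (-4.10, adjusted p = 0.0165), and the non-coding LOC724825 (GB45771) at 10.5 and 14.8 in foragers and 192, 3153 and 166 in nurses (-3.74, adjusted p = 0.0165). Of the 76 genes that passed without nurse 2, 71 were found in the RefSeq gene table and 7 of those are long non-coding RNAs, 5 higher and 2 lower in foragers. LOC725309 (GB40608) and LOC724936 (GB43761), protein-coding there, were lower in foragers, at 979 and 577 in foragers and 2235, 19799 and 2686 in nurses and at 101 and 99.3 in foragers and 444, 927 and 311 in nurses. LOC100576796 (GB55435), at 82.9 and 107 in foragers and 8.99, 3.20 and 2.78 in nurses, had a log2 difference of 4.13 with all 5 libraries that did not pass (adjusted p = 0.108, and 0.0505 without nurse 2).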

How the data were processed

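RNA from the flagella of pooled antennae was sequenced with a stranded kit in 2 forager and 3 nurse libraries. Per the sample records and the methods, the authors used CASAVA 1.8.2 for base calls, TopHat2 with Bowtie2 2.2.3 for alignment to assembly 4.5 of the bee genome, HTSeq 0.6.1p1 for reads per gene and edgeR 3.4.0 (Relative Log Expression) for normalisation. The deposited values are pseudo-counts in the unit signal, adjusted by the authors to a common library size. Of the values above 0, 0% are whole numbers (tolerance 1e-06), so no count test was run. The paper gives a wide range of uniquely mapped reads over the nurse and forager libraries, but the depth of each library is not at hand here. The methods' filter on summed counts was applied here to the pseudo-counts. The table of the 8 hygienic and non-hygienic bee libraries was normalised separately and is not used here.

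Values below 1e-10 were set to 0. Genes with a sum of at least 15 were compared on log2(value + 1) with limma 3.58.1 in R 4.3.3 (lmFit, eBayes with a variance trend), which was checked on simulated data. Fold changes on this scale understate the change of low genes. No covariate was used. Descriptions are at hand for 438 genes, from tables of genes the study picked on these libraries, and RefSeq names on Amel_HAv3.1 matched 10485 of 13414 genes. Members, lists and rules were chosen with earlier results of these data known. Genes could be named if they passed with all 5 libraries, if they were among the 12 largest changes each way without nurse 2 (mean of at least 10) or without overlap between groups (unadjusted p under 0.05, mean of at least 50), if they were among the 5 smallest p-values or the defining members of a list, if they had the 12 largest gaps of nurse 2 from the other nurses, or if the study's text names them. Not every gene that met these rules is named. Other genes past the threshold without nurse 2, and list members given as examples, were chosen after their values were seen.

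Alternatives were a pseudocount of 0.5 or 4, no filter or a mean of at least 10, equal totals, quantile normalisation, no variance trend, array weights, the replicate number as a block, and leaving out each library.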

Additional observations from a re-analysis of the deposited data

How the results depend on the processing

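The 10 genes past the threshold with all 5 libraries (6 higher and 4 lower in foragers) became 4 (2 and 2) with a pseudocount of 0.5, with no filter on low values or with a mean of at least 10, and those 4 were among the 10. With no variance trend 1 gene passed (0 higher and 1 lower), not among the 10. Array weights gave 19 (10 and 9), with all 10 kept and nurse 2 given the lowest weight of 0.470. A pseudocount of 4 or equal totals gave 10, and quantile normalisation 12. Leaving out 1 library gave 0 to 76 genes (0 to 46 higher and 0 to 30 lower), the highest number without nurse 2. With the replicate number as a block 6 genes passed (4 higher and 2 lower), 4 of them among the 10. Groups share the numbers 2 and 3 alone, which the labels do not tie to a hive or day, so the libraries were not paired. In the 8625 genes averaging 50 or more, deviations of forager 3 and nurse 3 from their group means correlated at 0.440 and those of forager 2 and nurse 2 at 0.157, while forager 2 correlated at 0.259 with nurse 1. The deviations of the 2 foragers mirror each other, and those of the nurses add up to 0. These correlations are therefore tied to each other and are not separate evidence on pairing.

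The 76 genes without nurse 2 (46 higher and 30 lower) became 31 (19 and 12) with no filter, all among the 76, and 0 (0 and 0) with no variance trend, where 1181 genes had an unadjusted p under 0.05. A pseudocount of 0.5 or 4, a mean of at least 10, equal totals and quantile normalisation gave 77 to 83 genes, of which 71 to 76 were shared. With 1 more library left out 0 to 5 genes passed (0 to 3 higher and 0 to 2 lower), in a fit that lets a lone library vary like the other group. These 11 settings were chosen after seeing the data. No gene whose log2 difference is given changed sign under any setting run with all 5 libraries. The medians of the heat shock, axoneme, juvenile hormone and mitochondrial ribosomal lists, all near 0, crossed 0 in 1 or more settings. The cause of these changes in number was not tested. With 2 libraries against 3 and the depth of each library not at hand, genes that did not pass are not shown to be equal.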

Other observations

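Transcription factors that respond to activity, the Notch pathway and the circadian clock were looked at after their values were seen, so their counts carry no weight as lists. LOC724465, like the Drosophila enhancer of split mbeta, was at 514 and 511 in foragers and 140.2, 45.5 and 131 in nurses (1.91 without nurse 2, adjusted p = 0.0175), and LOC409822 (GB43778), annotated as an E(spl)-like protein, at 549 and 711 in foragers and 219.7, 198 and 150.3 in nurses (1.77, adjusted p = 0.0379). Both belong to the repressors that Notch induces in Drosophila. The Notch ligand gene Ser had values of 136 and 126 in foragers and 189.5, 686 and 204 in nurses. Jra and Kay, the genes of the AP-1 factors Jun and Fos, were at 4615 and 3639 in foragers and 2387, 2406 and 2283 in nurses (adjusted p = 0.0525 without nurse 2) and at 1712 and 1986 in foragers and 1318, 1371 and 1267 in nurses (adjusted p = 0.16). Foragers lay above all nurses in each of Jra, Kay and Hr38.

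Among clock genes, Cyc (GB43953), the partner of Clock that drives the cycle, was higher in foragers, at 6093 and 6745 in foragers and 3679, 3122 and 3435 in nurses (0.85 without nurse 2, adjusted p = 0.0233). Per (GB52077), the period gene that closes the loop by repression, was at 1918 and 2287 in foragers and 3216, 2943 and 3671 in nurses, a log2 difference of -0.71 without nurse 2 (adjusted p = 0.0692). The time of day at which each library's bees were caught is not given in the labels, and its part in these values was not tested. Of 7 clock genes tested, 1 passed without nurse 2, higher in foragers (0.441% of all genes tested), and the median log2 difference was -0.11.

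In the gene order of RefSeq on the assembly Amel_HAv3.1, 3 pairs among the 76 genes had at most 2 genes between them, and both members of each pair moved the same way. LOC408551 and LOC408552, the type IV collagen genes, are next to each other, and LOC724465 and LOC409822 have 1 gene between them. LOC102656472 overlaps Vkr in that assembly. The kit marked strand, but the counting setting is not given in the sources used here, so reads of these overlapping genes may not be separate. The log2 difference of LOC102656472 was larger than that of Vkr (4.20 against 1.02 on the log2 scale without nurse 2).

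The non-coding RNA Ks-1, which is expressed in Kenyon cells of the bee brain, was at 56.3 and 73.9 in foragers and 15.4, 0.079 and 13.1 in nurses, where nurse 2 was near 0, and it did not pass (adjusted p = 0.327 with all 5 libraries and 0.132 without nurse 2).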
